A study of Oryza sativa with 6 samples.

Results

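The NAC transcription factors described here are 11 probes of 9 rice genes, out of 17727 probes of 15702 genes tested on a rice oligonucleotide array. A probe was taken if its annotation gave a single gene and the gene table listed for that gene a name made of NAC and a number, alone or after Os, O or S. The gene table held 10 genes with such a name, and the remaining gene, NAC077, had no probe among those with a single gene. The members are OsNAC2, OsNAC3, OsNAC4, OsNAC5, OsNAC6, OsNAC7, OsNAC8, ONAC010 and ONAC045. OsNAC5 and OsNAC6 had 2 probes each, numbered below in the order of their spots. Rice has further NAC genes whose entries in this table carry no such name, and they were not analysed here.

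NAC proteins are a plant-specific family that binds DNA through a conserved domain at the amino end, while the rest of the protein varies and activates or represses transcription. In leaves, several of them act in the response to water deficit and to abscisic acid, the hormone of water deficit, and others act in leaf senescence. In rice, OsNAC3, OsNAC4, OsNAC5 and OsNAC6 belong to the subgroup of stress-responsive NAC factors, and OsNAC6 is also named SNAC2 for that reason. Other members of the family direct organ boundaries or the building of secondary cell walls.

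The study set drought-stressed against well-watered leaves of 2 rice genotypes, Apo, called drought tolerant by the submitters, and IR64, called susceptible. Each of the 3 Apo arrays and the 3 IR64 arrays carried stressed leaf RNA of its genotype labelled with Cy3 and well-watered leaf RNA labelled with Cy5. Plants grew in a greenhouse, and water was withheld from day 33 after sowing. Stressed leaves were taken after 5 days according to the sample labels and 6 days according to the series text, while control leaves were taken on day 37. No array had the dyes exchanged, and nothing says whether replicates came from separate plants, so p-values here cover the spread among these arrays alone, which may be technical.

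Each value below is the deposited log ratio of the 2 RNAs on 1 array, taken as log10, or a mean of such ratios with its SD over the 3 arrays of a genotype. The sources used here do not settle which RNA is the numerator. The scanner software writes Cy5 over Cy3 as a rule, which would put the well-watered leaves on top, but the deposited table does not state its direction. The dehydrins, known to rise as leaves lose water, had positive ratios, which is the opposite of what that rule would give for them. No direction was set from measured values. Ratios are therefore called positive or negative, and a shared sign means only that 2 probes lay on the same side of the comparison. A ratio holds no level, so the labelled tissue could not be checked against leaf markers, and the signal of a probe over background could not be judged.

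The array IR64 replicate 1 stood apart from its genotype. Across the tested probes its correlation was 0.832 to 0.894 with Apo arrays, but 0.755 and 0.767 with IR64 replicates 2 and 3, which correlated at 0.938 with each other. Its value lay nearer to the Apo mean than to the mean of IR64 replicates 2 and 3 for 10 of the 11 NAC probes, OsNAC3 being the exception, against 62.3% of all tested probes. The counts of NAC calls in IR64 and for the difference are therefore given with and without this array. The IR64 counts and medians of other gene lists and of neighbouring genes include it. Why the array differs was not tested.

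In Apo, most NAC probes were positive. Of 11 probes, 8 passed the threshold on the positive side, 1 passed on the negative side and 2 did not pass, where the threshold is an adjusted p of 0.05 in limma's moderated test over all tested probes. These were 6 genes with positive probes, OsNAC3 as the negative gene, and OsNAC7 and ONAC045 without a call. Over all tested probes, 50.1% passed in Apo, 24.5% on the positive and 25.6% on the negative side. The median ratio of the NAC probes was 0.336, against -0.00318 over all tested probes. Each of the 9 called probes had 1 sign on all 3 Apo arrays. A call on the mean of 3 arrays favours that, so it adds no support. The members were not drawn at random, and the 2 probes of a gene are not independent.

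In IR64, fewer NAC probes passed. There were 4 positive, 1 negative and 6 without a call, which is 4 genes with a positive probe, OsNAC3 as the negative gene and 4 genes without a called probe. Over all tested probes, 43.0% passed in IR64, 22.7% on the positive and 20.2% on the negative side. The median of the NAC probes was 0.0576 in IR64, where the median of all tested probes was 0. By array, the median over the NAC probes was 0.333, 0.334 and 0.273 on the Apo arrays, and 0.303, -0.0391 and -0.0880 on IR64 replicates 1, 2 and 3. On each Apo array and on IR64 replicate 1, 9 of the 11 probes were positive, while 4 were positive on each of IR64 replicates 2 and 3. Of all tested probes, between 46.5% and 49.0% were positive on each array. Without IR64 replicate 1 the IR64 calls were again 5 in number, but 2 positive (OsNAC2 and OsNAC4) and 3 negative (OsNAC3, OsNAC5 probe 2 and OsNAC8), against 47.7% of all tested probes. That array was left out after its values were seen, so these calls only describe IR64 replicates 2 and 3.

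**Figure D1:**
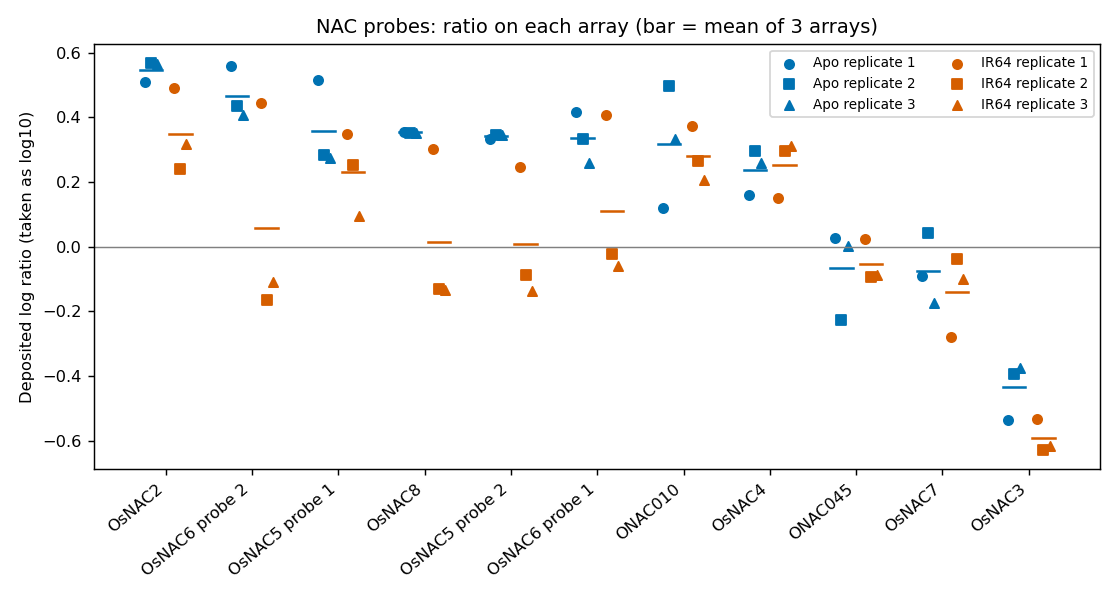
Deposited log ratio (taken as log10) of each NAC probe on each array, with Apo in blue left of IR64 in orange, 1 marker per replicate and a short bar at the mean of 3 arrays. OsNAC2 is positive and OsNAC3 negative on all 6 arrays, while OsNAC8, both OsNAC6 probes and OsNAC5 probe 2 are positive on the Apo arrays and IR64 replicate 1 and negative on IR64 replicates 2 and 3.

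Within the stress-responsive subgroup, OsNAC6 (SNAC2, LOC4325006) activates stress genes in rice and has been linked to tolerance of drought, salt and cold. Its probe 1 stood at 0.417, 0.334 and 0.258 on the Apo arrays and at 0.409, -0.0229 and -0.0593 on the IR64 arrays. Its probe 2 gave 0.560, 0.434 and 0.408 on the Apo arrays, against 0.445, -0.164 and -0.109 on the IR64 arrays. On both probes the Apo arrays and IR64 replicate 1 were positive and the other two IR64 arrays slightly negative, so the genotypes overlapped through that array.

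The Apo means of OsNAC6 were 0.336 ± 0.0791 and 0.467 ± 0.0809 (SD, n = 3), with limma adjusted p = 0.0211 and 0.0143. If the base is 10, these are ratios of 2.17 and 2.93. The IR64 means were 0.109 ± 0.260 and 0.0576 ± 0.337 (SD, n = 3) and did not pass (limma adjusted p = 0.372 and 0.714). The spread of OsNAC6 in IR64 thus exceeded its mean on each probe. The fit shares 1 spread over both genotypes, so the IR64 spread enters the Apo test. The Apo call of probe 1 was lost without any 1 of the Apo arrays (limma adjusted p = 0.0543 to 0.115, mean 0.296 to 0.375), and that of probe 2 without replicate 1 (0.0873, mean 0.421) or replicate 2 (0.0544, mean 0.484). With Apo fitted alone the adjusted p were 0.00593 and 0.00290 for probes 1 and 2, and without IR64 replicate 1 they were 0.000928 and 0.000339. IR64 replicate 1 was left out because it stood apart, so the values without it are a description and add no support to the Apo calls.

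OsNAC5 (LOC4349963), which in rice responds to abscisic acid and can pair with OsNAC6, gave unlike results on its probes. Probe 1 was at 0.516, 0.283 and 0.273 on the Apo arrays and at 0.349, 0.252 and 0.0963 on the IR64 arrays. Probe 2 gave 0.333, 0.344 and 0.346 on the Apo arrays, against 0.247, -0.0862 and -0.136 on the IR64 arrays. Probe 1 was positive on all 6 arrays, and its genotypes overlapped. Probe 2 followed the OsNAC6 pattern, but with IR64 replicate 1 below every Apo array.

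Probe 1 of OsNAC5 averaged 0.357 ± 0.137 in Apo and 0.232 ± 0.127 in IR64, both past the threshold (limma adjusted p = 0.00442 and 0.0287). Probe 2 averaged 0.341 ± 0.00678 in Apo (limma adjusted p = 0.00789) and 0.00834 ± 0.208 in IR64, which did not pass (0.940). The probes differed by 0.338 and 0.232 on IR64 replicates 2 and 3, probe 1 minus probe 2, and by 0.182, -0.0610 and -0.0728 on the Apo arrays. Which transcripts each probe detects is not given in the sources used here. The IR64 call of probe 1 was lost without IR64 replicate 1 (limma adjusted p = 0.112, mean 0.174) or replicate 2 (0.120, mean 0.223), and with each genotype fitted alone (0.0585).

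OsNAC3 (LOC4342753), of the same subgroup, lay on the other side from OsNAC5 and OsNAC6. It stood at -0.536, -0.394 and -0.376 on the Apo arrays and at -0.534, -0.628 and -0.616 on the IR64 arrays. It was negative on all 6 arrays, and the genotypes overlapped only at Apo replicate 1 and IR64 replicate 1. Its means were -0.435 ± 0.0880 in Apo and -0.592 ± 0.0514 in IR64 (SD, n = 3), with limma adjusted p = 0.000310 and 0.000128. The IR64 mean lay at percentile 2.42 of all tested probes, and the Apo mean at percentile 8.03.

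OsNAC4 (LOC4327485), known in rice for a part in cell death during the defence response, was positive on all 6 arrays at smaller ratios. It averaged 0.238 ± 0.0713 in Apo and 0.253 ± 0.0879 in IR64, both past the threshold (limma adjusted p = 0.00493 and 0.00490). Its values ran between 0.158 and 0.296 on the Apo arrays and between 0.152 and 0.312 on the IR64 arrays. Of the 4 genes of the subgroup, it had the difference between the genotypes smallest in size, -0.0151 with a 95% interval of -0.167 to 0.136. With all 6 arrays no probe of the subgroup passed for the difference. The intervals of OsNAC5 probe 1 (-0.0969 to 0.347) and OsNAC6 probe 1 (-0.0812 to 0.536) also held 0.

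Outside that subgroup, OsNAC2 (LOC4336052, also OsTIL1), which in rice affects tillering and leaf senescence, had the largest positive mean among the NAC probes in each genotype. Its ratios were 0.508, 0.567 and 0.565 on the Apo arrays and 0.490, 0.240 and 0.318 on the IR64 arrays. All 6 arrays were positive, and the genotypes did not overlap, although Apo replicate 1 and IR64 replicate 1 lay close together. The means were 0.547 ± 0.0332 in Apo and 0.350 ± 0.128 in IR64 (SD, n = 3), with limma adjusted p = 0.000250 and 0.00199. If the base is 10 these are ratios of 3.52 in Apo and 2.24 in IR64, at percentiles 95.5 and 92.7 of all tested probes.

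OsNAC8 (LOC4325120, also OsNTL3), a factor that in rice is anchored to a membrane and released under heat, had nearly equal values on the Apo arrays. They were 0.356, 0.353 and 0.352, while the IR64 arrays gave 0.303, -0.129 and -0.133. Every Apo array was above every IR64 array, by little at IR64 replicate 1. The Apo mean was 0.354 ± 0.00171 (SD, n = 3; limma adjusted p = 0.0132) and the IR64 mean 0.0137 ± 0.251 (0.915). As for OsNAC6, the IR64 spread enters the Apo test. The Apo call was lost without any 1 of the Apo arrays (limma adjusted p = 0.0566 to 0.0675), while the mean stayed at 0.353 to 0.354. With Apo fitted alone the adjusted p was 0.00129, and without IR64 replicate 1 it was 9.59e-05. That array was picked for standing apart, so the last value is a description and adds no support to the Apo call.

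ONAC010 (LOC4343630), for which no role is given here, was positive on all 6 arrays. It stood at 0.121, 0.496 and 0.333 on the Apo arrays and at 0.374, 0.264 and 0.205 on the IR64 arrays, with IR64 inside the Apo range. Its means of 0.317 ± 0.188 in Apo and 0.281 ± 0.0855 in IR64 passed the threshold (limma adjusted p = 0.0104 and 0.0197). The Apo call was lost without Apo replicate 3 (0.0520), and the IR64 call without IR64 replicate 1 (0.0814), replicate 2 (0.0781) or replicate 3 (0.0511).

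OsNAC7 and ONAC045 did not pass in either genotype. OsNAC7 (LOC4341201), of a subgroup that in other plants directs secondary wall formation, averaged -0.0748 ± 0.109 in Apo and -0.139 ± 0.124 in IR64 (limma adjusted p = 0.330 and 0.103). It was negative on every array but Apo replicate 2. Over both genotypes together its mean was -0.107 with limma adjusted p = 0.0656, and in the fit with replicate number as a block it passed (0.0410, within a range of 0.0410 to 0.191 over the alternatives). ONAC045 (LOC4349650), induced by drought in rice seedlings in other work, averaged -0.0658 ± 0.140 in Apo and -0.0534 ± 0.0661 in IR64 (limma adjusted p = 0.365 and 0.476), with both signs in each genotype. Averaged over both genotypes, 9 of the 11 NAC probes passed, against 58.1% of all tested probes.

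The difference between the genotypes was tested directly as Apo minus IR64. With all 6 arrays, none of the 11 NAC probes passed in limma, where 2.02% of all tested probes did. Unadjusted, 5 NAC probes had a p under 0.05 (OsNAC2, OsNAC3, OsNAC5 probe 2, OsNAC6 probe 2 and OsNAC8), as did 4848 of the 17727 tested probes. In the paired fit, with replicate number as a block, 5.36% of all tested probes passed and again none of the NAC probes, the smallest limma adjusted p being 0.0874, for OsNAC6 probe 2. The Apo mean was above the IR64 mean for 9 of the 11 probes, with a median difference of 0.157. Over all tested probes the median difference was -0.00724, so a minority of them had the Apo mean above. The 9 include both probes of OsNAC5 and of OsNAC6. They also include OsNAC3 and OsNAC7, whose means were negative in both genotypes and only less so in Apo. The Apo arrays all lay above the IR64 arrays for 3 probes (OsNAC2, OsNAC5 probe 2 and OsNAC8), against 15.3% of all tested probes.

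The largest differences were those of OsNAC6 probe 2, 0.410 with a 95% interval of 0.0227 to 0.797, OsNAC8, 0.340 (0.0531 to 0.627), and OsNAC5 probe 2, 0.333 (0.0894 to 0.576). Their limma adjusted p were 0.167, 0.139 and 0.112. The smallest were those of ONAC045, -0.0123 (-0.203 to 0.178), OsNAC4, as given above, and ONAC010, 0.0354 (-0.206 to 0.277). These intervals still hold differences of about the size of some means, so equality is not shown.

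Without IR64 replicate 1, 5 NAC probes of 4 genes passed for the difference, each with Apo more positive. Of all tested probes, 33.6% then passed, 13.9% with Apo more positive. This array was singled out because it lay near the Apo arrays, so leaving it out widens differences between the genotypes by that choice, and the calls over all tested probes grew to 5959, against 358 with all 6 arrays. The values without it are therefore a description. OsNAC8 stood at 0.354 in Apo and -0.131 on IR64 replicates 2 and 3, a difference of 0.485. OsNAC6 probe 2 stood at 0.467 in Apo and -0.136 on these IR64 arrays, a difference of 0.604, and OsNAC5 probe 2 at 0.341 in Apo and -0.111 on them, a difference of 0.452. OsNAC6 probe 1 and OsNAC2 had differences of 0.377 and 0.267. Over the other alternatives none of these 5 probes passed.

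**Figure D2:**
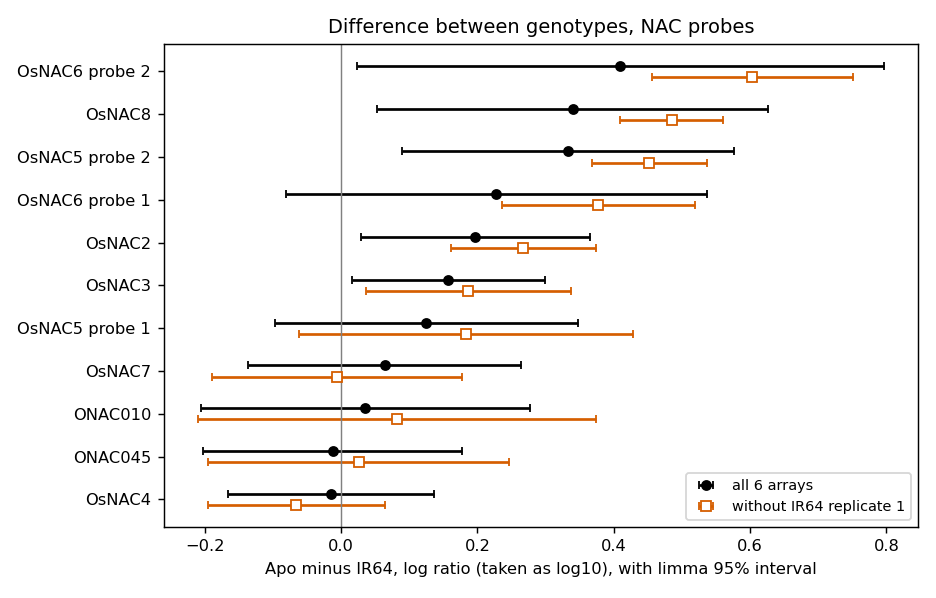
Apo minus IR64 difference of the log ratio (taken as log10) for each NAC probe, with limma 95% intervals, using all 6 arrays (black circles) and without IR64 replicate 1 (open orange squares). Without that array, which was left out for lying near Apo, the intervals of OsNAC8, OsNAC5 probe 2, OsNAC2, OsNAC3 and both OsNAC6 probes lie above 0, where that of OsNAC6 probe 1 spans 0 with all 6 arrays (-0.0812 to 0.536). Those of OsNAC4, ONAC045, OsNAC7, ONAC010 and OsNAC5 probe 1 span 0.

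Sign patterns over the 6 arrays were then counted. OsNAC8, both OsNAC6 probes and OsNAC5 probe 2, 4 of the 11, were positive on the 3 Apo arrays and IR64 replicate 1 and negative on IR64 replicates 2 and 3, against 4.76% of all tested probes. The pattern was noticed in these data, so this count describes the probes and tests nothing. On IR64 replicates 2 and 3 the mean was -0.131 for OsNAC8, -0.111 for OsNAC5 probe 2, and -0.0411 and -0.136 for OsNAC6 probes 1 and 2. The negative sign on these arrays picked the probes. The IR64 calls of OsNAC5 probe 2 and OsNAC8 without IR64 replicate 1 are therefore no independent test of it.

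Genes that act around NAC factors were read from lists of gene names. Chlorophyll breakdown enzymes, which in rice are activated by the senescence factor OsNAP of the same family, had 2 probes. SGR, which removes magnesium from chlorophyll, stood at 0.383, 0.412 and 0.409 on the Apo arrays and at 0.0839, -0.150 and -0.200 on the IR64 arrays. NYC1, a chlorophyll b reductase, gave 0.380, 0.301 and 0.308 on the Apo arrays, against 0.0819, -0.200 and -0.192 on the IR64 arrays. Both had the signs of OsNAC8 and OsNAC6 array by array, as did 4.76% of all tested probes, but their value on IR64 replicate 1 lay well below the Apo arrays. Both passed in Apo (limma adjusted p = 0.00133 and 0.00413) and neither in IR64 (0.238 and 0.203), and the difference passed for SGR (0.0400) and not for NYC1 (0.0573). Over all tested probes, 24.5% passed on the positive side in Apo, 43.0% passed in IR64 in either direction and 2.02% passed for the difference. The SGR call for the difference was lost without any 1 array other than IR64 replicate 1 (limma adjusted p = 0.142 to 0.178).

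**Figure D3:**
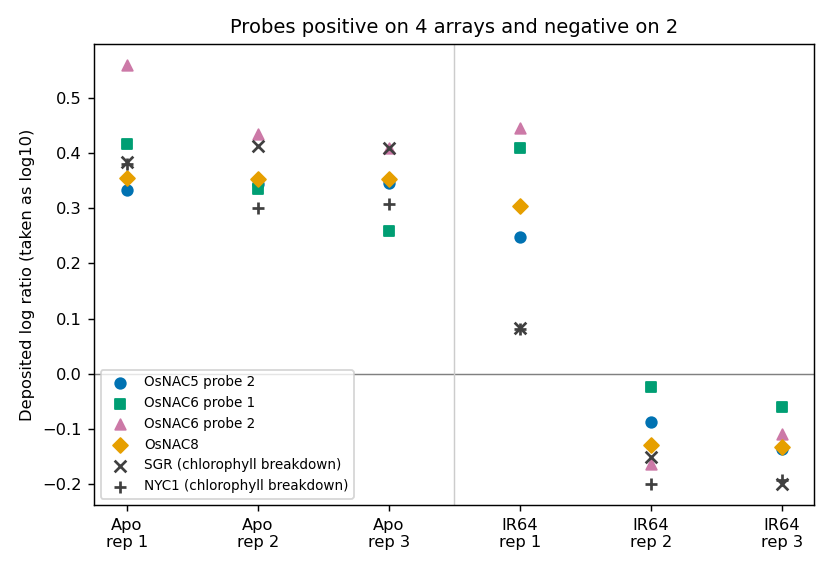
Deposited log ratio (taken as log10) on each of the 6 arrays for the 4 NAC probes that are positive on 4 arrays and negative on 2, with the chlorophyll breakdown genes SGR and NYC1 in grey. On IR64 replicate 1 the NAC probes lie between 0.247 and 0.445, and SGR and NYC1 at 0.0839 and 0.0819.

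Abscisic acid signalling, upstream of several stress-responsive NAC genes, was read from 67 probes of receptors, SnRK2 kinases, protein phosphatases 2C and transcription factors. In Apo 26 were positive, 19 negative and 22 without a call, with a median of 0.0507, and in IR64 17 were positive, 20 negative and 30 without a call, with a median of -0.0225. Its 12 SnRK2 kinase probes were mostly positive, with 8 positive and 1 negative in Apo and 7 and 0 in IR64, and medians of 0.369 in Apo and 0.288 in IR64. Its 51 phosphatase probes, which include many with no known part in hormone signalling, were 16 positive and 17 negative in Apo and 10 and 18 in IR64. The 3 probes of smallest p over both genotypes were OsPP2C59 at 1.58 in Apo and 1.28 in IR64, SAPK1 at 1.26 in Apo and 0.693 in IR64, and OsPP2C01 at -0.684 in Apo and -0.669 in IR64. The list passed for the difference at 2 of 67 probes, near the 2.02% of all tested probes. Within a genotype, 24.5% of all tested probes were called positive and 25.6% negative in Apo, and 22.7% and 20.2% in IR64.

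LEA proteins and dehydrins protect cells as water is lost and include reported targets of rice NAC factors. They were called positive on 6 of 6 probes in Apo and 5 of 6 in IR64, against 24.5% and 22.7% of all tested probes. Their medians were 1.27 in Apo and 1.06 in IR64, far above those of the NAC probes, and all 6 had a larger absolute mean than 0.3 in each genotype. The 3 of smallest p were RAB16C, rab25 and Dhn1, at 1.72, 1.15 and 0.935 in Apo and 1.43, 0.851 and 0.685 in IR64. RAB16C lay between 1.64 and 1.84 on the Apo arrays and between 1.20 and 1.61 on the IR64 arrays. None of the 6 passed for the difference, where 2.02% of all tested probes did, so equality is not shown. By unadjusted p under 0.05, 4 of the 6 differed, as did 4848 of the 17727 tested probes. The Apo arrays all lay above the IR64 arrays for 4 of the 6, against 15.3% of all tested probes.

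The name list for DREB and ERF factors, another family of drought regulators, had 10 probes with 3 positive and 0 negative in Apo and 2 positive and 3 negative in IR64. DREB2A, which activates dehydration genes, averaged 0.578 ± 0.0417 in Apo and 0.290 ± 0.252 in IR64, with IR64 replicate 1 at 0.582 and replicates 2 and 3 at 0.139 and 0.151. DREB1B (listed by the name ERF31) averaged 0.00331 in Apo and -0.848 in IR64. The third of smallest p, AP3, is a floral MADS box gene that the name pattern took in, as it did the aspartic protease OSAP1. AP3 was called on the positive side in both genotypes, and without it the list had 2 positive and 0 negative of 9 probes in Apo and 1 positive and 3 negative in IR64. AP22 and AP25 were also listed under AP names, and whether they are DREB or ERF factors was not checked. AP22, at 0.877 in Apo, is 1 of the 2 positive probes left there. The 5 WRKY probes, of a family best known in defence, had 3 positive and 2 negative in Apo and 1 and 2 in IR64, with medians of 0.198 in Apo and -0.0579 in IR64. For both lists, the shares over all tested probes were 24.5% positive and 25.6% negative in Apo, and 22.7% and 20.2% in IR64. WRKY76 was at -0.809 in Apo and -0.449 in IR64, WRKY9 at 0.198 in Apo and 0.177 in IR64, and WRKY71 at 0.566 in Apo and 0.0862 in IR64, the last again with IR64 replicate 1 at 0.444 and replicates 2 and 3 at -0.0958 and -0.0900.

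**Figure D4:**
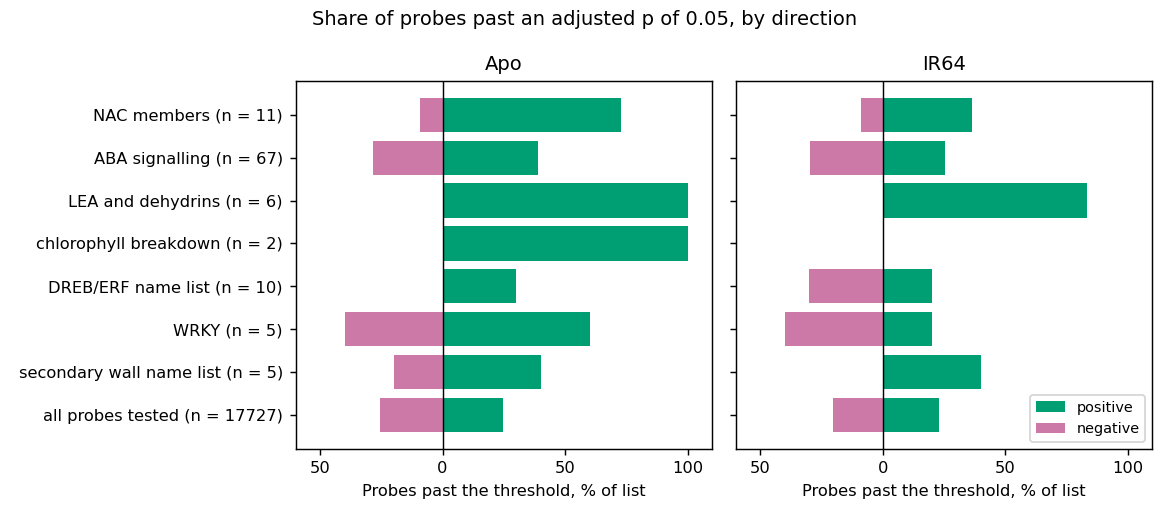
Share of the probes of each list that passed an adjusted p of 0.05 on the positive side (right) and on the negative side (left), in percent of the list, for Apo and IR64. NAC probes have 8 positive and 1 negative of 11 in Apo and 4 and 1 in IR64, beside 24.5% and 25.6% of all tested probes in Apo and 22.7% and 20.2% in IR64.

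The secondary wall list had 2 positive and 1 negative probe of 5 in Apo and 2 and 0 in IR64. For this list and the markers below, 50.1% of all tested probes were called in Apo and 43.0% in IR64, in either direction. The cellulose synthase CESA4 averaged 0.0950 ± 0.290 in Apo and 0.782 ± 0.138 in IR64, and CESA7 averaged 0.181 ± 0.0819 in Apo and 0.141 ± 0.147 in IR64. The first by p, listed as BC1, also carries the name bHLH081 and so may be no wall gene. Markers of other tissues were called at 1 of 5 seed storage probes, 0 of 2 anther probes and 1 of 2 root probes in Apo, and at 0 of 5, 0 of 2 and 1 of 2 in IR64, the root one being NRT2.3, negative in both. Vascular and secondary wall markers were called, on the positive side, at 1 of 3 probes in Apo (CESA7) and 1 of 3 in IR64 (CESA4). Both of these probes are also in the secondary wall list, so the lists are not independent. By unadjusted p under 0.05 the counts of the anther list were 0 in Apo and 0 in IR64, and that of the seed storage list in IR64 was 0. Their part in the NAC ratios was not tested. No name of the list for NAC genes outside the rule was found among the probes.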

How the data were processed

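The deposited values are 1 log ratio per spot and array from 2-colour arrays, and the submitters' processing notes name Agilent Feature Extraction 8.1 as the tool. That the authors' deposited ratios are log10 is an assumption from that software. No source used here states the numerator, the background correction, the dye normalization or the centring. The medians of the 6 arrays over all spots lay between 0 and 0.00201. Their scales differed, with median absolute deviations over the tested probes of 0.157, 0.163 and 0.129 on the Apo arrays. On the IR64 arrays these were 0.137, 0.143 and 0.123. Apo replicate 2 had 1074 tested probes at exactly 0, and the other arrays had 151 to 635. Precision is limited by the small number of arrays.

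The table held 22575 spots. Of these, 17860 were annotated, 17839 with 1 gene and 21 with several, and 133 at exactly 0 on all arrays were dropped, leaving 17727 tested probes. All 17839 gene identifiers matched the gene table of the assembly ASM3414082v1, used for names and neighbours only. No NAC value was exactly 0.

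A mean per genotype was fitted to the ratios as deposited with limma 3.58.1 (lmFit, eBayes; R 4.3.3), with Benjamini-Hochberg adjustment over all tested probes. Tables and figures used Python 3.11.15, pandas 2.3.3 and matplotlib 3.10.9. Written rules named every member, with each array's value where a called probe had a mean of at least 0.3 in size in a genotype or passed for the difference, and the 3 probes of smallest p per list. OsNAC4 fell under 0.3 and has ranges. The members and lists were chosen with earlier results of these data known.

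Same-numbered Apo and IR64 arrays deviated together from their genotype means (r = 0.322, 0.261 and 0.340 across probes for replicates 1, 2 and 3, against -0.260 to 0.0166 for other pairs), so the replicate number was also fitted as a block. Alternatives changed the scaling, the filter, zeros, the variance model and the arrays included. Sequences of probes, proteins and promoters were not used here.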

Additional observations from a re-analysis of the deposited data

Results flagged for a closer look

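No NAC probe differed between the genotypes past the threshold with all 6 arrays, nor did any move one way on every Apo array and the other way on every IR64 array. Among the 105 probes of the name lists read beside them, 6 passed limma's test of the difference, each with Apo more positive. Over all tested probes 2.02% passed, 137 with Apo more positive and 221 with IR64 more positive. Of the 6, all passed without IR64 replicate 1. Only DREB1B passed without any other 1 array apart from IR64 replicate 3. None passed without that array, where 0 of all tested probes passed in limma (2589 by unadjusted p under 0.05). With all 6 arrays kept, 4 passed with arrays scaled alike and 5 under quantile normalization. With every spot tested 3 passed, and 4 did with a robust and trended variance model. The replicate block kept all 6. WRKY8 (also named WRKY24), of the defence-related WRKY family, was at 0.157, 0.204 and 0.259 on the Apo arrays and at -0.286, -0.339 and -0.237 on the IR64 arrays, a difference of 0.494 (limma adjusted p = 0.0203). On this probe, unlike on OsNAC8 and OsNAC6, IR64 replicate 1 lay with the other IR64 arrays. The phosphatase OsPP2C45 averaged 0.369 ± 0.0292 in Apo and -0.0686 ± 0.0688 in IR64, a difference of 0.438 (limma adjusted p = 0.0234). The differences of DREB1B and DREB1A (listed as CBF3) were 0.851 and 0.602, that of the kinase SAPK1 was 0.564, and that of SGR was 0.490.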

How the results depend on the processing

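Counts of called NAC probes were compared over 15 alternatives. Leaving out 1 array at a time gave 6 to 9 called probes in Apo, 3 to 5 in IR64, 0 to 5 for the difference and 5 to 9 for the mean of both genotypes. The largest departures were 3 in IR64 without IR64 replicate 2, 5 for the difference without IR64 replicate 1 and 5 for the mean without Apo replicate 1. Every other alternative kept the counts within 1.5 times, including the replicate block, which gave 9, 5, 0 and 10, and a mean over probes of a gene, which counts genes. Over all tested probes the difference count was 358, and 951 with the replicate block, 5959 without IR64 replicate 1, 0 without IR64 replicate 3 (2589 by unadjusted p under 0.05), and 5 to 12 without each of the others.

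Of 622 probe-level results, 569 kept their sign and their side of the threshold, 29 lost a call, 7 gained one and 17 changed sign, 2 of these with a call. Leaving out 1 array at a time moved the IR64 mean between -0.111 and 0.0806 for OsNAC5 probe 2, -0.131 and 0.0870 for OsNAC8, -0.0411 and 0.193 for OsNAC6 probe 1, and -0.136 and 0.168 for OsNAC6 probe 2, each lowest without IR64 replicate 1, where OsNAC5 probe 2 and OsNAC8 were called. Those calls followed from leaving out the array that stood apart, so they are a description. ONAC045 in Apo moved between -0.112 and 0.0149. The uncalled differences moved between -0.0585 and 0.0683 for ONAC045, -0.0656 and 0.0247 for OsNAC4, -0.0543 and 0.133 for ONAC010, and -0.00579 and 0.114 for OsNAC7. Under quantile normalization the IR64 means turned to -0.00640 for OsNAC5 probe 2 and -0.00223 for OsNAC8, and the ONAC045 difference to 0.00575, as it did to 0.000809 with arrays scaled alike. The cause of these changes was not tested beyond the array left out. Signal over background is unknown, so low-signal probes could not be set apart.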

Other observations

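The protein-coding genes next to the 9 NAC genes in the gene table, 1 on each side, were looked up for their own ratios. Of these 18 neighbours 12 had a probe, 13 probes in all, with 6 positive and 3 negative past the threshold in Apo and 3 and 1 in IR64, where 50.1% of all tested probes passed in Apo and 43.0% in IR64. The phosphatase gene OsPP2C64 lies beside ONAC010 and averaged 0.140 ± 0.0333 in Apo and 0.156 ± 0.0450 in IR64 (limma adjusted p = 0.0106 and 0.00842). LOC4349966, after OsNAC5, averaged 0.872 ± 0.0122 in Apo and 0.736 ± 0.144 in IR64, and OSAP1, before it, averaged 0.00389 ± 0.0332 in Apo and 0.0823 ± 0.0723 in IR64. LOC4325119, before OsNAC8, had 2 probes that were positive on the Apo arrays and on IR64 replicate 1 (0.133 and 0.262) and negative on IR64 replicates 2 and 3 (-0.0141 and -0.114 for one, -0.0452 and -0.0233 for the other), the signs of OsNAC8 itself. LOC4325004, before OsNAC6, lay on the other side from OsNAC6 in Apo, at -0.645 ± 0.136, and stood at -0.749, -0.164 and -0.104 on the IR64 arrays. These genes were chosen by place alone, and whether neighbours share transcripts or probes was not tested.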
